A study of Homo sapiens with 8 samples.

Results

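The mitochondrial ribosomal protein genes are the nuclear genes that code for the proteins of the ribosome inside mitochondria. They were taken from the count table as protein-coding genes whose symbol starts with MRPL or MRPS and a number, and 77 of the 32066 genes in the table met this rule. Of these, 48 are MRPL genes, named for the large subunit, and 29 are MRPS genes, named for the small subunit. Membership rests on the symbol alone, which does not show that a protein sits in this ribosome. All 77 passed the filter on low counts and were tested.

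RNA was sequenced from DU145, an established prostate carcinoma cell line of epithelial type that was derived from a brain metastasis. There were 4 libraries of control cells and 4 libraries of cells with exogenous expression of SOX11, a transcription factor of the SOX family that is best known from neural development. Both groups came from the same line, grown in DMEM medium with fetal bovine serum, and the labels name no vector, clone, induction time or control construct. The comparison asks how RNA levels differ between cells with and without exogenous SOX11.

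The mitochondrial ribosome translates the mRNAs that the mitochondrial genome encodes, all of which code for subunits of the oxidative phosphorylation complexes. Its rRNAs are made inside the mitochondrion, whereas its proteins are translated in the cytosol and imported. Some of the proteins descend from bacterial ribosomal proteins, and the others were gained after mitochondria arose and are called mitochondria-specific.

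Levels are given as CPM, read counts divided by the library's total with TMM factors, which correct those totals for differences in composition. A gene was called when the quasi-likelihood test of edgeR gave an adjusted p (Benjamini-Hochberg over all 15665 genes tested) below 0.05, and log2 fold changes are SOX11 minus control. The libraries held 14641250 to 18706095 counts. The SOX11 transcript was counted 315, 303, 317 and 310 times in the libraries labelled SOX11, against 0 in each control. Nothing in the labels says whether the 4 libraries of a group came from separate cultures, so p-values measure the spread between these libraries, which may be technical. In bulk RNA, fewer cells with a transcript and less of it per cell cannot be told apart.

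Upstream sequence is shown for 4 called members, each with a match to one of the motifs searched, as examples of the promoters behind the genes described next. The sequences are from RefSeq on GRCh38.p14, run 5′ to 3′ on the strand of the gene, lie within 250 bases before the RefSeq start site and contain no base of any GENCODE 29 exon. Capitals mark the motif match. MRPL52 (chr14:22829821-22829878, plus strand) holds a match to the YY1 motif AAGATGG. MRPL3 (chr3:131502984-131503221, minus strand) holds a match to the ETS motif CCGGAAG. MRPL17 (chr11:6683402-6683590, minus strand) holds a match to the NRF1 motif, and MRPS21 (chr1:150293611-150293719, plus strand) holds the reverse complement of the SOX motif ACAAAG.
MRPL52: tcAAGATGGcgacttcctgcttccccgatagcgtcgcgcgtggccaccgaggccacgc
MRPL3: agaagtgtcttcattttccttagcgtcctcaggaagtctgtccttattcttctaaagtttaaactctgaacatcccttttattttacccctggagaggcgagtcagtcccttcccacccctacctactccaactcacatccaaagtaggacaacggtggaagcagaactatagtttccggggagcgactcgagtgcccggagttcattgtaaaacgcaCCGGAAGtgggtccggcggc
MRPL17: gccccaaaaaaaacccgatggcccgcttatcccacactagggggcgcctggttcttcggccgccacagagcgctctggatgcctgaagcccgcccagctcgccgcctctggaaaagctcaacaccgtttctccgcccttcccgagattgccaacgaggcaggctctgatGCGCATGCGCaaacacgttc
MRPS21: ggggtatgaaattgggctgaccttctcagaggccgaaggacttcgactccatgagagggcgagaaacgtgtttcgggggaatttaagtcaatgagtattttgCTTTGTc

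Most mitochondrial ribosomal protein genes sat slightly lower in the SOX11 libraries, and 17 of the 77 were called. Of these, 15 fell and 2 rose. Over all genes tested, 20% were called, 9.67% lower and 10.3% higher, so the share of members called in either direction, 22.1%, was near the background. The share of members called lower was 19.5% and the share called higher was 2.60%. The median log2 fold change of the members was −0.07, and 62 of 77 (80.5%) were below 0, against a median of 0.00 and 49.7% below 0 over all genes tested.

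These counts depend on how libraries were scaled. With library size as the only scaling, the median of all genes tested moved to 0.03 and 8 members were called, 5 lower and 3 higher, beside 6.78% of all genes lower and 13% higher. With DESeq2, 9 members were called lower and 0 higher, beside 8.60% of all genes lower and 8.06% higher. Calls were more common among abundant genes, and the median control level was 51.1 CPM for the members and 20.1 CPM for all genes tested. Among the 9648 genes with a control mean of at least 10 CPM, 24.7% were called and 14.1% were called lower, and among the 69 members at that level the shares were 24.6% and 21.7%.

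The changes were small. For 69 of the 77 members the 95% interval of the change lay within 1.25-fold in either direction, and for 76 it lay within 2-fold. The exception to the second bound was MRPS24, which had 87 counts over all 8 libraries. In 20 members every SOX11 library lay below every control library and in 1 member every SOX11 library lay above, beside 10.4% and 10.6% of all genes tested.

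**Figure D1:**
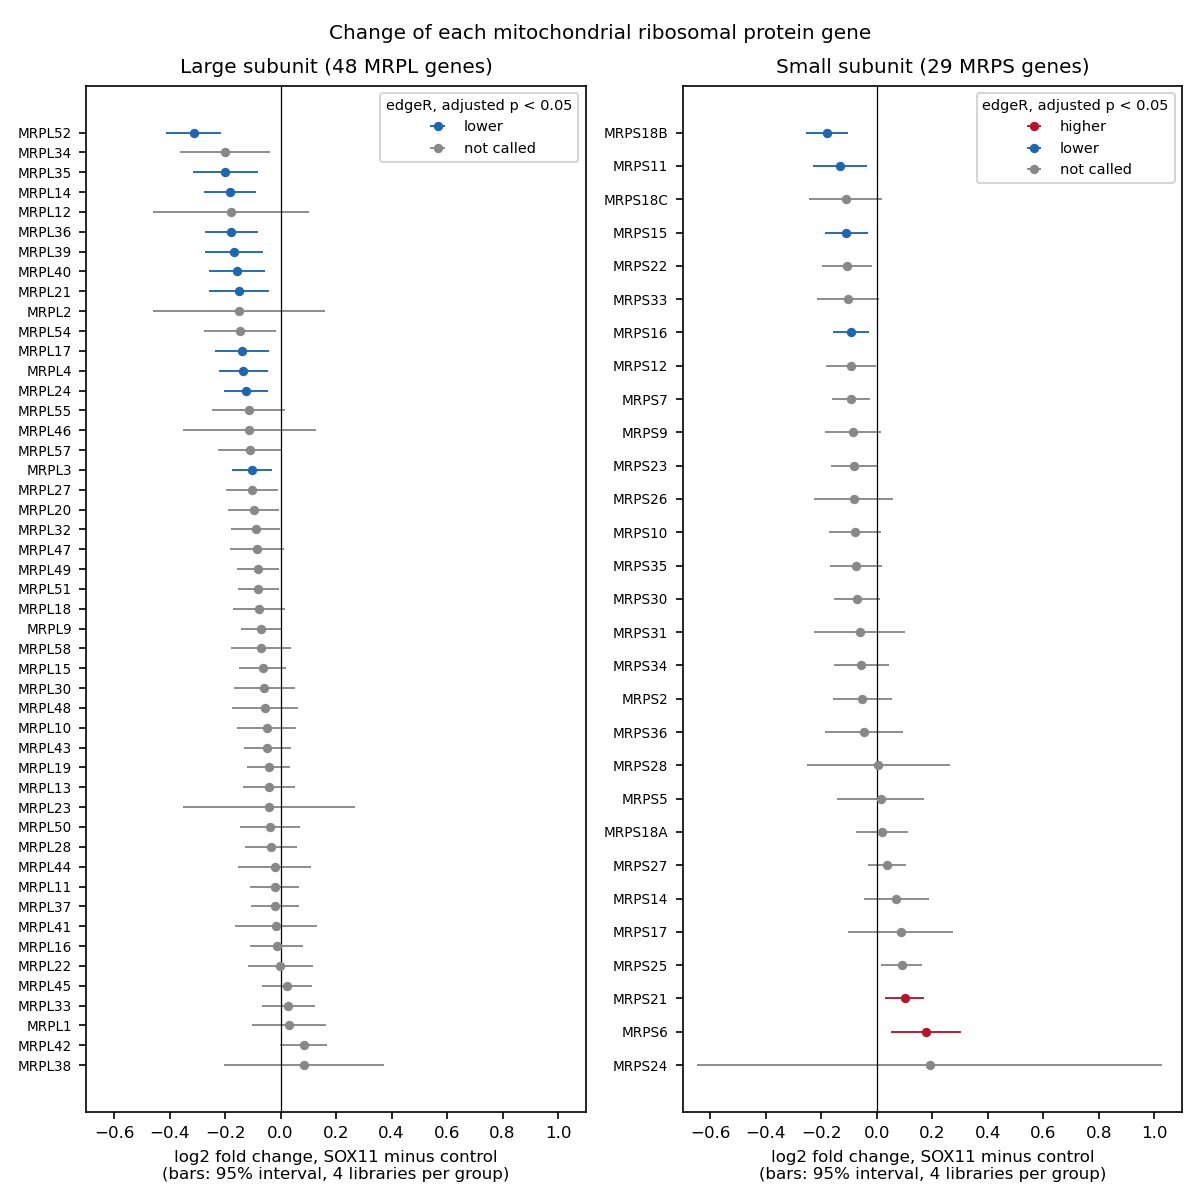
Log2 fold change (SOX11 minus control) of each of the 48 MRPL genes (left) and 29 MRPS genes (right), with the 95% interval from edgeR as a bar and colours for the call at an adjusted p below 0.05. Points sit mostly left of 0 in both panels, 43 of 48 and 19 of 29, and MRPL52 is the lowest at −0.31.

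Most large-subunit genes lay a few percent lower in SOX11 libraries. Of the 48 MRPL genes, 11 (22.9%) fell, 0 rose, and 43 (89.6%) had a log2 fold change below 0, with a median of −0.08. Over all genes tested, 9.67% were called lower, 10.3% were called higher and 49.7% were below 0. Among genes of at least 10 CPM in control, 14.1% were called lower and 55.3% were below 0. Without an adjustment for the number of genes, 29 of the 77 members of both subunits passed an edgeR p of 0.05. Of the 15665 genes tested, 4939 did so. Library size as the only scaling left 4 large-subunit genes called, and DESeq2 left 7, all of them lower.

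Small-subunit genes were more divided. Of the 29 MRPS genes, 4 (13.8%) fell and 2 (6.90%) rose, and 19 (65.5%) were below 0, with a median log2 fold change of −0.07. The 20.7% called in either direction is near the 20% over all genes tested, and the 13.8% called lower is near the 14.1% over genes of at least 10 CPM. With library size as the only scaling, 1 fell and 3 rose. DESeq2 called 2 lower and 0 higher. Leaving out control replicate 2, control replicate 3 or SOX11 replicate 1 left 1 small-subunit gene called in each case. The difference in direction between the subunits was not tested, since genes are not replicates.

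Descent from bacteria split the calls unevenly by count, and no test was made of that split. In the large subunit, 8 of 30 genes with a bacterial homologue fell (median −0.09) and 3 of 18 mitochondria-specific genes fell (median −0.06). In the small subunit, 3 of 16 genes with a bacterial homologue fell and 2 rose (median −0.07), and 1 of 13 mitochondria-specific genes fell (median −0.07). As shares called lower these are 26.7%, 16.7%, 18.8% and 7.69%, in that order. Of all genes tested 9.67% were called lower, and of those of at least 10 CPM 14.1%. The 16.7% and 18.8% are above both but nearer the 14.1%, and the 7.69% is below both. Of the 8 calls behind the 26.7%, MRPL14 and MRPL36 held in all 13 alternative analyses described later. MRPL35 held in 12 and the others in 5 to 9.

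MRPL52, a mitochondria-specific protein of the large subunit (ENSG00000172590, GRCh38 chromosome 14, 22829879 to 22835037, plus strand), had the lowest adjusted p and the lowest log2 fold change of all members. Its level was 48.8, 48.7, 49.1 and 47.7 CPM in the control libraries and 39.0, 40.0, 40.8 and 36.4 CPM in the SOX11 libraries. All 4 SOX11 libraries lay below all 4 controls, and the controls lay close together. The mean went from 48.6 ± 0.620 to 39.1 ± 1.92 CPM (SD, n = 4), a log2 fold change of −0.31 (SE 0.0482, edgeR adjusted p = 1.39e-05), or −19.5%.

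MRPS18B, a mitochondria-specific paralog of S18 in the small subunit (ENSG00000204568, chromosome 6, 30617709 to 30626395, plus strand), stood at 121, 121, 121 and 127 CPM in control and 103, 106, 113 and 112 CPM in SOX11 libraries. The groups did not overlap, and the highest control was replicate 4. This is a log2 fold change of −0.18 (SE 0.0375, edgeR adjusted p = 0.00074).

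The other S18 paralogs were not called. MRPS18A, which is named for the small subunit but sits in the large one, had 51.1 ± 1.21 CPM in control and 51.7 ± 1.80 CPM in SOX11 libraries (SD, n = 4), with a log2 fold change of 0.02 (edgeR adjusted p = 0.829). MRPS18C, the bacterial-type S18 of the small subunit, had 24.0 ± 0.798 and 22.2 ± 1.94 CPM, with a log2 fold change of −0.11 (edgeR adjusted p = 0.241). MRPS30, also a large-subunit protein by position, had 93.6 ± 5.42 and 89.2 ± 0.712 CPM, with a log2 fold change of −0.07 (edgeR adjusted p = 0.239). Counting MRPS18A and MRPS30 with the large subunit left 11 large-subunit and 6 small-subunit genes called.

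Next in order were core proteins of the large subunit with bacterial homologues. MRPL14 (ENSG00000180992, chromosome 6, 44113454 to 44127457, minus strand) had 58.8, 68.6, 64.7 and 64.9 CPM in control and 55.5, 57.1, 56.2 and 57.8 CPM in SOX11 libraries. The groups did not overlap, although control replicate 1 came close to the SOX11 libraries. The log2 fold change was −0.18 (edgeR adjusted p = 0.00458).

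MRPL36 (ENSG00000171421, chromosome 5, 1798386 to 1801366, minus strand), a small protein of the large subunit, had 46.8, 46.8, 45.0 and 46.6 CPM in control and 39.8, 41.8, 42.1 and 40.1 CPM in SOX11 libraries. Every SOX11 library was below every control. The log2 fold change was −0.18 (edgeR adjusted p = 0.00646). MRPL52, MRPS18B, MRPL14 and MRPL36 were the 4 members called in every one of 13 alternative analyses, the 8 that left out a library included.

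MRPL35 (ENSG00000132313, chromosome 2, 86199355 to 86213794, plus strand), another large-subunit protein with a bacterial homologue, had 30.7, 32.8, 28.8 and 30.4 CPM in control and 26.8, 25.7, 26.3 and 28.5 CPM in SOX11 libraries. The lowest control, replicate 3, lay just above the highest SOX11 library, replicate 4. The log2 fold change was −0.20 (edgeR adjusted p = 0.0129), and the call held in 12 of the 13 alternatives.

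MRPL39 (ENSG00000154719, chromosome 21, 25585656 to 25607517, minus strand), a mitochondria-specific protein of the large subunit, had 43.6, 39.4, 42.7 and 40.0 CPM in control and 38.0, 36.6, 37.6 and 35.1 CPM in SOX11 libraries. The groups did not overlap. The change was −0.17 on the log2 scale (edgeR adjusted p = 0.0183), and the call held in 9 of the 13 alternatives.

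The other 9 lower calls were nearer the threshold, with adjusted p from 0.0236 to 0.0472 in edgeR, and each was lost in at least 4 of the 13 alternatives. In the large subunit these were MRPL24 (log2 fold change −0.12), MRPL40 (−0.16), MRPL4 (−0.13), MRPL3 (−0.10), MRPL17 (−0.14) and MRPL21 (−0.15). In the small subunit they were MRPS16 (−0.09), MRPS15 (−0.11) and MRPS11 (−0.13). Apart from the mitochondria-specific MRPL40, all have bacterial homologues. SOX11 and control libraries overlapped for MRPL40 and MRPS11 and did not overlap for the other 7. MRPS15, MRPL21 and MRPS11 lie outside the rule for named genes and were added after their values were seen, to complete the set. Of the 17 called members, MRPL4, MRPS11, MRPS16 and MRPS6 share exon bases with another gene in GENCODE 29, 4 in all, so their counts are less certain. Over all 77 members, 40 share exon bases. MRPL4 and MRPS11 share them only with genes on the opposite strand, and MRPS16 shares 20 bases on its own strand, with DNAJC9.

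Both members that rose belong to the small subunit and have bacterial homologues. MRPS6 (ENSG00000243927, chromosome 21, 34073224 to 34143034, plus strand) had 28.1, 28.3, 28.2 and 28.8 CPM in control and 34.7, 34.7, 28.0 and 30.7 CPM in SOX11 libraries. SOX11 replicate 3 lay below all 4 controls and the other SOX11 libraries lay above them, so the groups overlap. The log2 fold change was 0.18 (SE 0.0620, edgeR adjusted p = 0.0414). MRPS6 shares 273 exon bases on the same strand with SLC5A3, and the treatment of reads there is not stated in the labels.

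MRPS21 (ENSG00000266472, chromosome 1, 150293720 to 150308979, plus strand) had 113, 114, 112 and 110 CPM in control and 119, 119, 120 and 125 CPM in SOX11 libraries. All SOX11 libraries were above all controls, the single member with that pattern. Its log2 fold change was 0.10 (SE 0.0351, edgeR adjusted p = 0.0417). DESeq2 called neither gene (adjusted p = 0.0909 for MRPS6 and 0.0873 for MRPS21), and the edgeR calls held in 6 and 3 of the 13 alternatives.

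**Figure D2:**
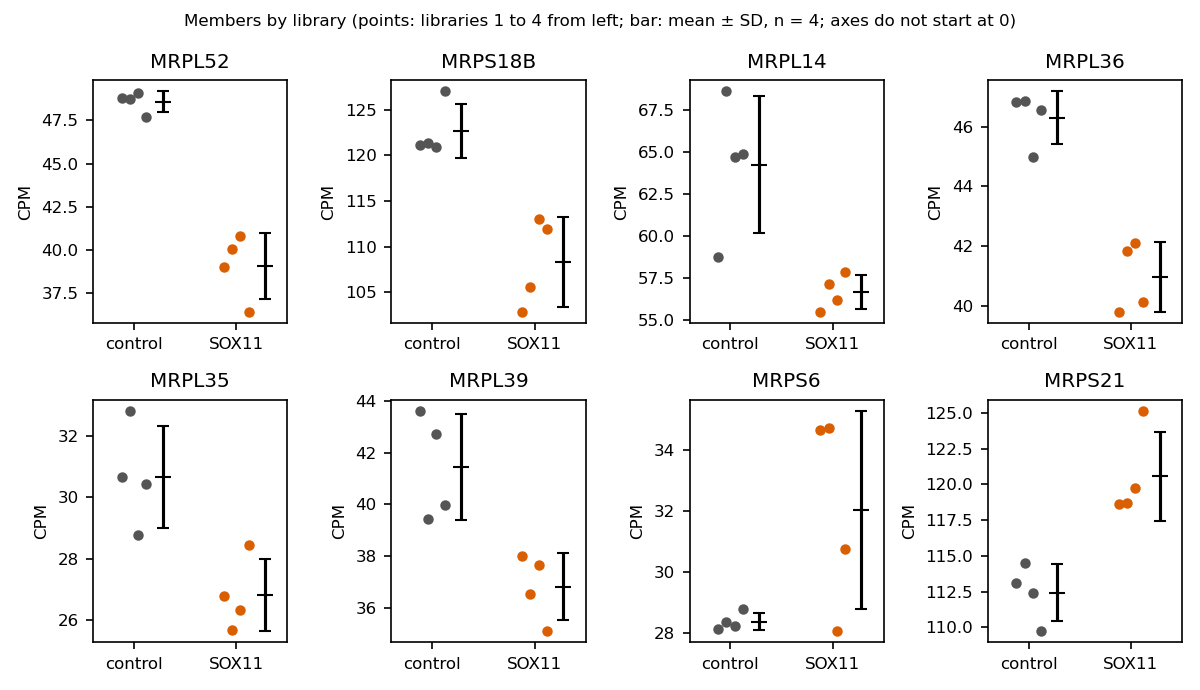
CPM in each library (points, replicates 1 to 4 from left) with mean ± SD (n = 4 per group) for the 6 lower members with the smallest adjusted p and the 2 higher members. The groups are apart in 7 panels, and in MRPS6 SOX11 replicate 3, at 28.0 CPM, lies below the controls while the other SOX11 libraries lie above them.

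Summed over genes and scaled by TMM, both subunits were lower in every SOX11 library than in any control. The large-subunit sum was 2497, 2497, 2522 and 2519 CPM in control and 2364, 2363, 2398 and 2394 CPM in SOX11 libraries, and the mean changed by −5.15%. The small-subunit sum was 1803, 1822, 1796 and 1802 CPM in control and 1749, 1730, 1745 and 1771 CPM in SOX11 libraries, and the mean changed by −3.16%. Without any scaling factor, the share of all counts taken by the 77 genes was 0.426% to 0.427% in the controls and lower, 0.413% to 0.418%, with SOX11. By subunit, the unscaled share of the large subunit ranged from 0.247% to 0.249% in the controls and from 0.239% to 0.241% with SOX11, which do not overlap. For the small subunit it was 0.177% to 0.180% and 0.175% to 0.178%, which do overlap.

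The ratio of summed small-subunit to summed large-subunit CPM does not depend on the scaling of a library. It was 0.722, 0.730, 0.712 and 0.715 in control and 0.740, 0.732, 0.728 and 0.740 in SOX11 libraries. The means were 0.720 ± 0.00771 and 0.735 ± 0.00600 (SD, n = 4), a difference of 0.0151. The groups overlapped, since SOX11 replicate 3 lay below control replicate 2. With MRPS18A and MRPS30 moved to the large subunit, the ratio ran from 0.621 to 0.633 in control and from 0.630 to 0.643 in SOX11 libraries, which also overlap.

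**Figure D3:**
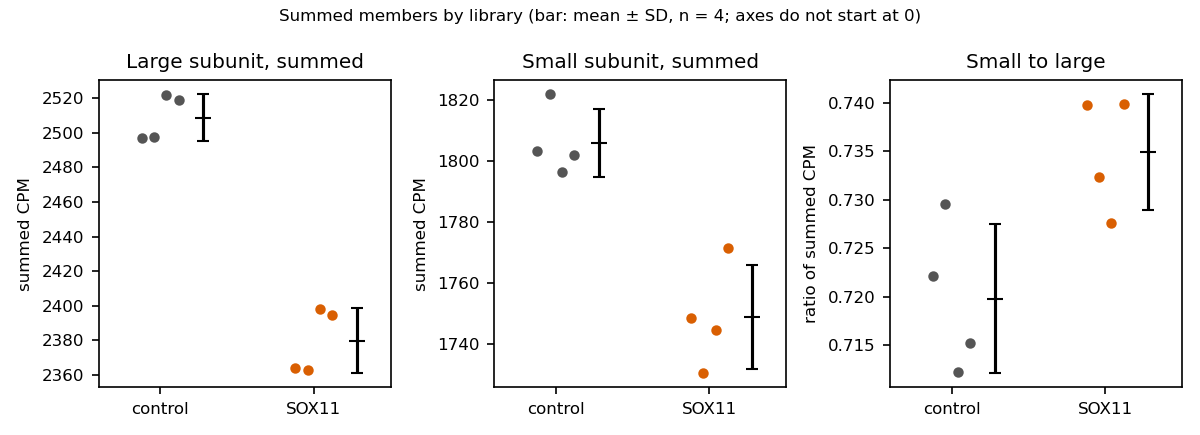
Summed CPM of the 48 large-subunit genes, of the 29 small-subunit genes, and their ratio (small to large) in each library, with mean ± SD (n = 4 per group). The sums are separate between groups, and the ratio overlaps between 0.728 and 0.730.

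Members differed far more in level than in response. To compare genes, CPM was divided by transcript length in kilobases, taken as the median length of the protein-coding transcripts in the GENCODE 29 basic set. In control libraries the large-subunit genes ran from 2.25 to 201 CPM per kb with a median of 43.4, and the small-subunit genes from 0.886 to 96.3 with a median of 47.4.

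By CPM per kb, the most abundant large-subunit members were MRPL49 and MRPL51, both mitochondria-specific. They stood at 201 ± 4.24 and 179 ± 4.23 CPM per kb in control (SD, n = 4). Neither was called, with log2 fold changes of −0.08 (edgeR adjusted p = 0.121) and −0.08 (edgeR adjusted p = 0.124). Their rank depends on the transcript length used, 509.5 bases for MRPL49 and 551 for MRPL51. In CPM, MRPL49 at 103 and MRPL51 at 98.7 in control lay below MRPL3 at 143, MRPL9 at 109 and MRPL42 at 107. MRPL49 and MRPL51 also share exon bases with genes on the opposite strand, among them FAU and NCAPD2 respectively. The most abundant small-subunit members were MRPS27, a mitochondria-specific pentatricopeptide repeat protein, and MRPS16, at 96.3 ± 1.71 and 95.1 ± 0.660 CPM per kb, which differ by less than their spread. MRPS27 was not called, with a log2 fold change of 0.04 (edgeR adjusted p = 0.523).

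By this measure the least abundant members were MRPL38 in the large subunit and MRPS24 in the small subunit. They stood at 2.25 ± 0.115 and 0.886 ± 0.522 CPM per kb in control. Their log2 fold changes, 0.08 for MRPL38 (edgeR adjusted p = 0.743) and 0.19 for MRPS24 (edgeR adjusted p = 0.800), changed sign when 1 library was left out, MRPL38 to −0.05 without SOX11 replicate 3 and MRPS24 to −0.15 without control replicate 1 and −0.02 without SOX11 replicate 4. Their 95% intervals, −0.20 to 0.37 and −0.65 to 1.03, are the range these counts allow.

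The 8 members under 10 CPM in control were MRPS24, MRPL38, MRPL23, MRPL2, MRPL12, MRPL46, MRPS28 and MRPS17, and 0 of them were called. In GENCODE 29, 6 of these 8 share exon bases with another gene on the same strand, against 9 of the other 69 members. Reads in shared exons can be dropped or split by a counter, so these low levels are uncertain, and the part of the overlap in them was not tested.

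**Figure D4:**
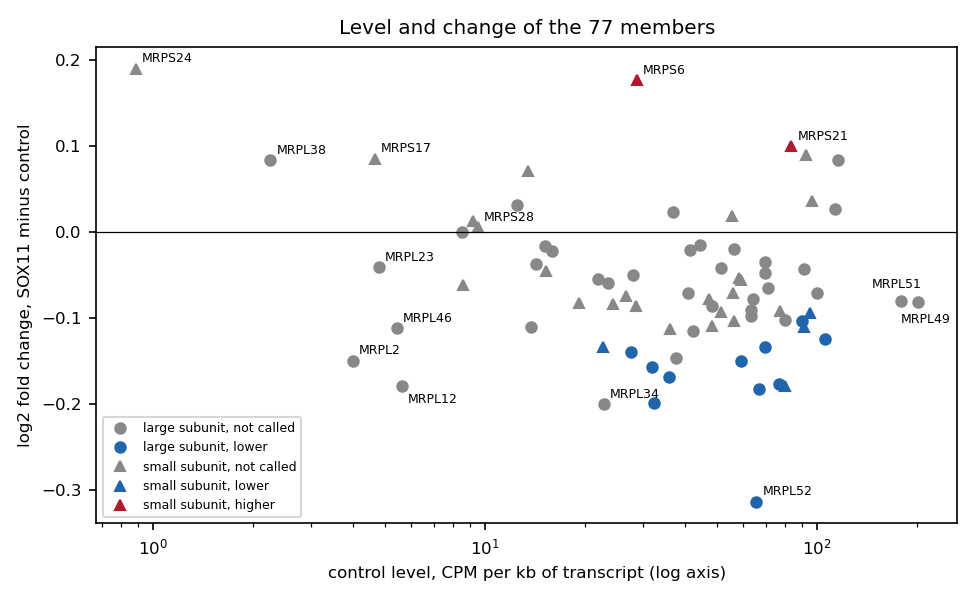
Control level in CPM per kb of transcript (log axis) against log2 fold change (SOX11 minus control) for the 77 members, with circles for large-subunit and triangles for small-subunit genes and colours for the call. Calls lie at middle and high levels, and the 8 members under 10 CPM, at the left, hold none.

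Promoter windows of 300 bases, 250 before and 50 after the RefSeq start site, matched 68 of the 77 members. Both strands were searched. The YY1 motif AAGATGG was in 23 of 68 windows (33.8%), beside 6.06% of all promoters and 7.52% of those of tested genes. In most of these 23 windows the YY1 match lay at least in part in the 50 bases after the start site. It lay wholly before the start in MRPL32, MRPL36, MRPL47, MRPL49, MRPL52, MRPS12 and MRPS16. The ETS motif CCGGAAG was in 28 of 68 (41.2%), beside 10.7% of all promoters and 19.4% of those of tested genes. Shares in the subunits were close, 34.1% of large-subunit and 33.3% of small-subunit windows for YY1, and 39.0% and 44.4% for ETS.

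The NRF1 motif, GCGCANGCG followed by a C, was in 8 of 68 windows (11.8%), beside 6.28% of all promoters and 12% of those of tested genes. Without that last C, a shorter form counted after the first result was seen, it was in 13 of 68 (19.1%), beside 8.05% and 15.1%, so the standing of the members against tested genes turns on 1 letter. The SOX motif ACAAAG was in 2 of 68 windows (2.94%), those of MRPL47 and MRPS21, beside 16% of all promoters and 10.4% of those of tested genes. The longer NRF1 form contains the shorter one, and ETS and YY1 matches can overlap, since CCGGAAG ends with the letters that begin AAGATGG.

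The motif counts were also split by call. Of the 13 lower members with a window, 4 held the ETS motif, 4 the YY1 motif, 3 the longer NRF1 motif and 0 the SOX motif. Of the 53 members not called, 23 held ETS, 19 YY1, 5 NRF1 and 1 SOX. Of the 2 higher members, MRPS21 held the ETS motif and the SOX match printed above, and MRPS6 held 0 matches to the 4 motifs. A match is a stretch of letters and no evidence of binding, and these counts carry no test.

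Mitochondrial ribosomal proteins under other names had a like median. All 5 of DAP3, PTCD3, CHCHD1, AURKAIP1 and GADD45GIP1 had log2 fold changes below 0 (median −0.07), and 0 were called. DAP3, a GTP-binding protein of the small subunit and the most abundant of them, was at −0.07 (edgeR adjusted p = 0.0936).

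The rRNAs of the same ribosome, encoded in the mitochondrial genome, both fell, although the groups overlapped for each. The highest SOX11 library, at 1076 CPM for MT-RNR1 and 9843 CPM for MT-RNR2, lay above the lowest control, at 1056 and 9561 CPM. MT-RNR1, the small-subunit rRNA, went from 1130 ± 67.2 to 1005 ± 49.7 CPM (SD, n = 4), a log2 fold change of −0.17 (edgeR adjusted p = 0.00358). MT-RNR2, the large-subunit rRNA, went from 9945 ± 462 to 9104 ± 508 CPM, a log2 fold change of −0.13 (edgeR adjusted p = 0.0140), and this call was lost in 4 of the 13 alternatives. The libraries were made from poly(A) RNA, so the rRNA counts depend on how the rRNA was captured and may not follow its amount.

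Among the 13 protein-coding genes of the mitochondrial genome, whose mRNAs this ribosome translates, 2 (15.4%) rose and 0 fell. Over all genes tested, 10.3% were called higher. The median log2 fold change was 0.02. In poly(A) libraries these counts too may not follow RNA amounts, since transcripts with a short tail or none, MT-ND6 possibly among them, are captured poorly. The strand option of the counter is not given, so reads from the opposite strand may be included. MT-ND6, a complex I subunit, was at 0.13 (edgeR adjusted p = 0.00862), and MT-CYB, the cytochrome b of complex III, was at 0.12 (edgeR adjusted p = 0.0150). The MT-ND6 call was lost in 1 of the 13 alternatives and the MT-CYB call in 3. The groups overlapped for both. The lowest SOX11 library, at 336 CPM for MT-ND6 and 4992 CPM for MT-CYB, lay below the highest control, at 345 and 4999 CPM.

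Factors that work with the ribosome also had medians below 0. Of 15 mitochondrial translation factors, 4 (26.7%) fell and 0 rose (median −0.10), beside 9.67% of all genes tested lower, among them GFM1, the elongation factor G of mitochondria (−0.15, edgeR adjusted p = 0.00308), SLIRP, an mRNA-stabilizing protein (−0.14), and OXA1L, the insertase for new membrane proteins (−0.13). The calls of SLIRP and OXA1L were lost in 3 and 2 of the 13 alternatives. Of 19 assembly factors tested, 3 (15.8%) fell and 1 (5.26%) rose (median −0.06), and the 21.1% called in either direction is near the 20% over all genes. FASTKD2, needed for the large-subunit rRNA, was at −0.18 (edgeR adjusted p = 0.00346), and the rRNA methyltransferase MRM3 was at −0.19. MALSU1, which binds the large subunit during assembly, was at 0.20 (edgeR adjusted p = 0.0192). The calls of MRM3 and MALSU1 were lost in 8 and 5 of the 13 alternatives.

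Of 18 mitochondrial aminoacyl-tRNA synthetases, which charge the tRNAs this ribosome uses, 3 (16.7%) fell and 1 (5.56%) rose (median −0.06). The 22.2% called in either direction is near the 20% over all genes tested. CARS2, for cysteine, was at −0.33 (edgeR adjusted p = 2.72e-05), and IARS2, for isoleucine, was at −0.12. Of 12 genes for mitochondrial transcription and its nuclear regulators, 0 were called (median −0.03). YY1, the most abundant, was at −0.01 (edgeR adjusted p = 0.811), and at 0.01 with library size as the only scaling.

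Cytosolic ribosomal protein genes, the counterpart outside mitochondria, had a similar median and more calls. Of 82 tested, 49 (59.8%) fell and 0 rose, with a median log2 fold change of −0.10. Their median control level was 475 CPM, against 51.1 CPM for the members, and their median SE was 0.0308, against 0.0480, so a change of a given size passes the test more readily. Nuclear oxidative phosphorylation genes resembled the members, with 14 of 75 (18.7%) lower and 2 (2.67%) higher and a median of −0.06. The 21.3% of them called in either direction is near the 20% over all genes tested. The 3 with the smallest adjusted p were ATP5F1E (−0.21) and ATP5PB (−0.18) of the ATP synthase and SDHD (−0.26) of complex II. The difference between these lists and the members was not tested.

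**Figure D5:**
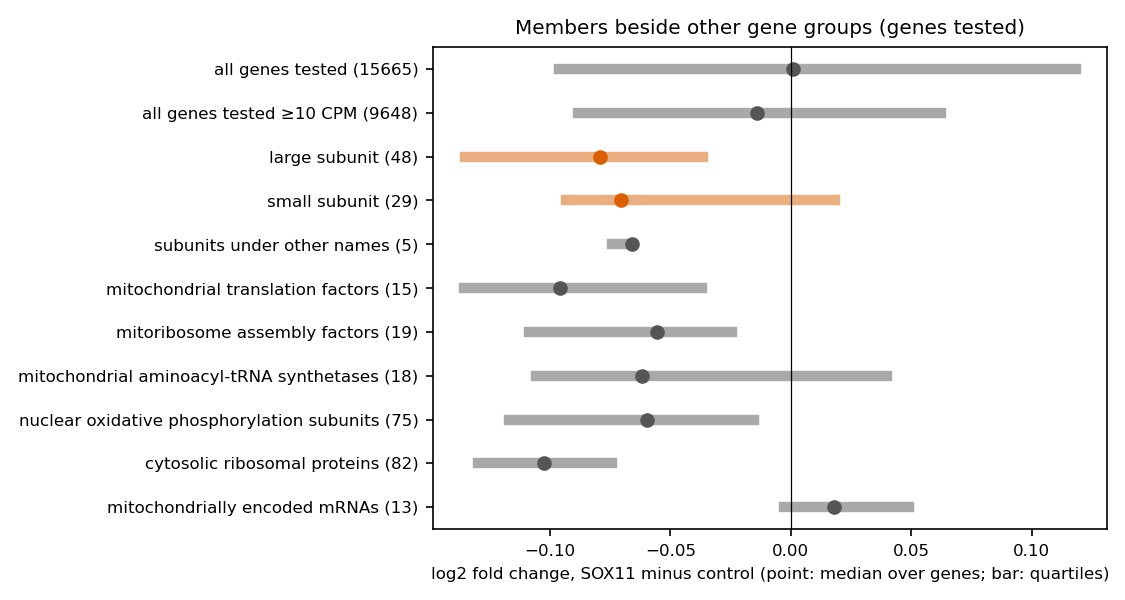
Median (point) and quartiles (bar) of the log2 fold change (SOX11 minus control) over the genes of each group, with the number tested in brackets. The medians of the large and small subunit, −0.08 and −0.07, lie beside those of the cytosolic ribosomal proteins, −0.10, and the nuclear oxidative phosphorylation genes, −0.06, and left of all genes tested at 0.00.

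Markers of cell type also differed between the groups. The summed level of 5 epithelial markers ranged from 1497 to 1761 CPM in the controls and from 1200 to 1206 CPM with SOX11, and 3 of the 5, KRT8, KRT18 and KRT19, which make up most of the sum, fell. EPCAM lay at 43.5 to 46.1 and 46.7 to 49.0 CPM (log2 fold change 0.10, edgeR adjusted p = 0.142), with every SOX11 library above every control, and CDH1 was at −0.11 (edgeR adjusted p = 0.660). Of 6 fibroblast markers, 4 had counts, with sums of 3.33 to 5.43 and 5.84 to 7.71 CPM, and COL1A1, which makes up most of these sums, rose. The other 3 were under 0.3 CPM on average in each group, with COL3A1 at 0.289 and 0.0958 CPM and PDGFRB at 0.217 and 0.184 CPM. Of 6 blood cell markers, 3 had counts, and they summed to under 1 CPM in every library. Among 5 endothelial markers, EGFL7 alone was above 0.3 CPM on average, at 21.3 and 18.4 CPM. It fell, a call lost in 6 of the 13 alternatives. Their part in the members' shift was not tested.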

How the data were processed

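The deposited values are raw, unnormalized counts for each Ensembl gene in 8 poly(A) RNA libraries made with a stranded kit, per the labels' protocols. Per the submitters' processing notes, cutadapt, FastQC, STAR 2.7.0e and GRCh38 were used. Which counter, strand option and gene annotation produced the counts is not given in the sources used here. Symbols matched 32053 of 32066 identifiers. Coordinates are from GENCODE 29, which held 30159 of them.

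Genes were filtered with filterByExpr (minimum count 10), scaled with TMM and tested with edgeR 4.0.16 (robust quasi-likelihood F-test, group as the only term) in R 4.3.3, with Benjamini-Hochberg adjustment over 15665 genes. Scripts were tested on simulated data. Alternatives were RLE scaling, library size only, no filter, DESeq2 1.42.0, a replicate block, each library left out, and subunits by position. Depth, 14641250 to 18706095 counts per library, limits members under 10 CPM most.

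The members and lists were chosen with earlier results of these data known. Named members were up to 12 called in each direction by adjusted p, the first 6 with every library, the 2 most and the least abundant per subunit by CPM per kb, MRPS18A, MRPS18B, MRPS18C and MRPS30. From other lists, up to 3 called genes by adjusted p, or the most abundant, were named. The values of 1 gene that this rule names are not reported here. Motif letters were chosen during the analysis, and a shorter NRF1 form was added after the first was counted. Promoter sequences are from RefSeq (GRCh38.p14).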

Additional observations from a re-analysis of the deposited data

Results flagged for a closer look

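Of 60 groups of 4 libraries looked at, 3 had a library far from the others, and chance alone gives about 1 in 20. MRPS18B in control had a gap to its nearest neighbour of 0.916 of the group's range, with replicate 4 at 127 CPM and the others at 121 CPM. MRPL36 in control had a gap of 0.853, with replicate 3 at 45.0 CPM below the others. MRPS21 in SOX11 libraries had a gap of 0.829, with replicate 4 at 125 CPM above the others.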

How the results depend on the processing

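Both subunit medians stayed below 0 and the ratio difference above 0 under every alternative run, but the counts of calls moved. The 17 members called became 8 with library size only and 9 with DESeq2, and 8 to 14 when a library was left out. The 11 large-subunit calls became 4 with library size only, 7 with DESeq2 and 7 to 10 with a library left out. The 6 small-subunit calls became 2 with DESeq2 and 1 to 6 with a library left out. With library size only, the median log2 fold change was −0.0509 for the large and −0.0424 for the small subunit. With a library left out it ran from −0.0858 to −0.0678 and from −0.0794 to −0.0519. The ratio difference ran from 0.0126 to 0.0183, and calls over all genes from 2466 to 3057. The cause was not tested.

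Replicate numbers did not pair the samples: the correlation of deviations between same-numbered libraries ran from −0.0683 to 0.109. With the replicate number as a block, 12 members were called, 10 in the large and 2 in the small subunit, and 2899 of all genes.

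MRPL38 reversed to −0.0546 without SOX11 replicate 3 (range with a library left out up to 0.186), MRPS24 to −0.146 without control replicate 1 and −0.0225 without SOX11 replicate 4 (range up to 0.488), and YY1 to 0.0148 with library size only. Of the values for single genes, 506 kept their direction and side of the threshold, 114 lost the call and 4 reversed. Low counts limit the 8 members under 10 CPM.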
